A study of Mus musculus with 6 samples.

Results

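Type I interferon stimulated genes are the transcripts that cells raise after interferon-alpha or interferon-beta binds its receptor. A list of 35 such genes was examined in microglia of mice that overexpress PGC-1α and of their controls. Members were chosen by name, through array probes whose transcript accession matched a listed gene symbol, and each gene took the value of its brightest probe. A probe was matched for 33 of the 35 genes, out of 23462 genes matched on the array, and 32 were bright enough to be tested, out of 13085. Mx1 and Mx2 had no probe matched by accession and were not analysed here. The Oas3 probe was dim, with no array well above background.

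The samples were microglia from mice labelled male and aged 10 weeks, isolated with a kit that selects cells bearing the receptor P2RY12. Signals of sex-linked genes that differ from this label are given below with the arrays. PGC-1αf/f mice carry, per the study's methods, a loxP-flanked PGC-1α allele linked to eGFP and lack Cre. mPGC-1α mice carry the same allele together with a tamoxifen-inducible Cre recombinase placed in the Cx3cr1 gene, so that overexpression is directed to cells that use this gene. All mice had a C57BL/6 background, and the controls were littermates. Each group had 3 samples, 1 on each array. The sources used here do not say whether a sample was 1 mouse or a pool, or whether the controls on the arrays had received tamoxifen. For its morphology and stroke experiments the study describes tamoxifen in both genotypes, but it does not repeat this for the arrays. The overexpressed gene, Cre, the altered Cx3cr1 copy and tamoxifen therefore cannot be told apart. If samples of a group were not separate animals, p-values measure only the spread between these samples.

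Interferon-alpha and interferon-beta signal through a receptor made of IFNAR1 and IFNAR2. The kinases JAK1 and TYK2 then activate STAT proteins, STAT2 among them, which join IRF9 and bind a DNA element, the interferon-stimulated response element, in front of target genes. The products degrade viral RNA, block viral entry and translation, tag proteins with ISG15, and include the sensors and transcription factors of the pathway itself, with USP18 as a brake at the receptor. Microglia keep a low activity of this pathway in the healthy brain and raise it in infection, ageing and injury.

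The promoters below are shown because the core of that element, GAAA, any 2 bases and GAAA again, was searched in them on both strands (a match on the other strand reads TTTC, 2 bases and TTTC as written here). Sequences are from RefSeq, build GRCm38.p6, and run 5′ to 3′ over the 250 bases before the gene's start, with each match in capitals. The first 4 genes were higher in mPGC-1α microglia by over 1 on the log2 scale, and Stat2 is set beside them as a gene with a match and a smaller difference.
Isg15 (chr4:156200819-156201068, minus strand): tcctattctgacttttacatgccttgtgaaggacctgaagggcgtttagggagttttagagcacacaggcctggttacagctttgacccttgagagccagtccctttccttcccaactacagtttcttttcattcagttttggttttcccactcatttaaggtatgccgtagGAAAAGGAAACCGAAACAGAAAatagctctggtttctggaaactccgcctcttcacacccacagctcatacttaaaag
Ifit1 (chr19:34640639-34640888, plus strand): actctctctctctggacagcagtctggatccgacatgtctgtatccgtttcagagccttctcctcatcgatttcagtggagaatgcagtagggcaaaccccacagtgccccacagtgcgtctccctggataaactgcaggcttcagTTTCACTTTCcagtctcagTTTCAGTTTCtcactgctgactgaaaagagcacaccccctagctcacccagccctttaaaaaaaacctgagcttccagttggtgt
Ifit3 (chr19:34583279-34583528, plus strand): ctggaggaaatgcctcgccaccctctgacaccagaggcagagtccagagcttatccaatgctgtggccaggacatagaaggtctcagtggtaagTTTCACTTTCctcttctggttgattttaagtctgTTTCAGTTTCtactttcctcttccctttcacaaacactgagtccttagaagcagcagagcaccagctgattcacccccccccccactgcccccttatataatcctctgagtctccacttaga
Rsad2 (chr12:26456453-26456702, minus strand): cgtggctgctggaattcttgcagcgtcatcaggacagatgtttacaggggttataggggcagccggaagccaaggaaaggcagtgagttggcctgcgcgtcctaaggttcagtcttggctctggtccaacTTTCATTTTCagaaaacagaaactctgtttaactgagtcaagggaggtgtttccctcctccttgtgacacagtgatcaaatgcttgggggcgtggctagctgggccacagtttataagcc
Stat2 (chr10:128270248-128270497, plus strand): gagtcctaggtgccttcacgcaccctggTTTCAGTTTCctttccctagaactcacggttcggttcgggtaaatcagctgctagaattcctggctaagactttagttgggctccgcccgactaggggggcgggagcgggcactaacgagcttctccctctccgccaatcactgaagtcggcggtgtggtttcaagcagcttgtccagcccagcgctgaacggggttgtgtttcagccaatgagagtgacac

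Isg15 had 3 matches that overlap each other and together cover 78 to 57 bases before the start. Ifit1 and Ifit3 had 2 each, and Rsad2 and Stat2 had 1 each. In the table of promoters, which covered 250 bases before to 50 after the start, 25 of the 35 listed genes were found. The motif was present in 13 of these 25 (52.0%), against 3.99% of all 27025 genes in the table. Both shares cover the whole window. A match lay before the start in 9 of the 13, but not for Ddx58, Eif2ak2, Ifih1 and Ifitm3. Among the tested genes, the 12 with a match had differences from 0.21 to 1.51 with a median of 1.104, and the 12 without a match had differences from -0.15 to 2.02 with a median of 0.99. Both sets therefore held genes with large and with small differences. Oasl1, the gene with the largest difference of the list, had no match in this window.

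Across the list, most genes were higher in mPGC-1α microglia, while no single gene passed the threshold over all probes. Values are log2 signal minus the 75th percentile of the array, so a difference of 1 is a 2-fold difference in signal. Of the 32 genes tested, 29 were higher, where 52.9% of all genes tested were. The median difference was 0.97 on the log2 scale, or 1.96-fold, beside 0.02 over all genes tested. None, 0 of 32, had a limma adjusted p under 0.05 (0.0535% of all genes had), and 21 were higher at an unadjusted p under 0.05 (7.83% of all genes), with 0 lower (5.75%). Oas2, among the 21, and Herc6 were bright enough on all mPGC-1α arrays but on 2 control arrays only, and of the 30 genes well above background throughout, 20 were higher at that level (7.26% of all such genes). A difference of at least 1 was found for 14 (3.87% of all genes). Of the 31 genes with values from every array, 22 had each mPGC-1α sample above each control (12.4% of all such genes), and 0 had the opposite order (10.7%). The smallest adjusted p of the list was 0.0784, for Oasl1.

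**Figure D1:**
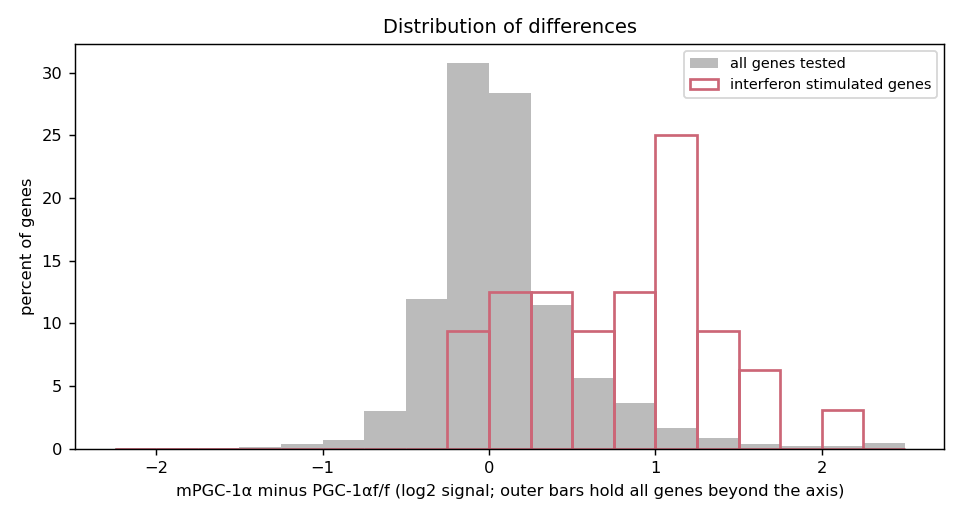
Percent of genes (vertical axis) by difference in log2 signal between mPGC-1α and PGC-1αf/f microglia (horizontal axis, bars 0.25 wide), for 13085 genes tested in grey and the 32 interferon stimulated genes in outline. The outline lies to the right of the grey bars, with a median of 0.97 against 0.02, and reaches down to -0.16.

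The arrays were compared before the genes. The number of spots well above background ranged from 27025 to 30272 of 59305 and no spot was saturated. PGC-1αf/f replicate 3 stood apart, with a mean correlation of 0.928 across genes with the other arrays, where the others had 0.963 to 0.973. On mPGC-1α replicate 3, labelled male, the Y-linked genes Ddx3y, Eif2s3y, Kdm5d and Uty were not well above background. Xist, a transcript of female cells, was highest on that array, at -1.63. It was at -2.78 on PGC-1αf/f replicate 2 and -2.40 on mPGC-1α replicate 2, which also had Y-linked signal. On the other arrays Xist was at -6.47 to -5.44. The sex of each sample, and whether it was 1 mouse or a pool, was not tested. The 12 microglial markers, P2ry12 and Tmem119 among them, were well above background on all arrays, with a mean log2 level of 3.75 to 4.11 over the 6 markers measured on every array. Of these 12 markers 10 were lower in mPGC-1α microglia, with a median difference of -0.24 (-0.14 without PGC-1αf/f replicate 3) and 1 reached an unadjusted p under 0.05 (5.75% of all genes were lower at that level). That gene was Cx3cr1, whose altered copy carries Cre, with a difference of -0.51 (SE 0.14, adjusted p 0.194) and every mPGC-1α array below every control. Ppargc1a, which encodes PGC-1α, had control values of 0.19, -0.44 and -1.21, against 0.57, 0.28 and 0.08 under overexpression. The difference of 0.80 (SE 0.35) had an adjusted p of 0.306, and it was 0.44 with PGC-1αf/f replicate 3 left out. The Ppargc1a groups overlapped, with 1 control above the lowest mPGC-1α array.

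Within the groups the list was not even. For each gene the mean of its 6 arrays was subtracted, and the median over 31 genes was then taken on each array. This median was -0.31, -0.21 and -0.60 on PGC-1αf/f replicates 1, 2 and 3, and 0.11, 0.39 and 0.68 on mPGC-1α replicates 1, 2 and 3. The control arrays all lay below the mPGC-1α arrays, and PGC-1αf/f replicate 3 was the lowest. Of 31 genes, 22 had their highest mPGC-1α value on replicate 3 and 25 their lowest on replicate 1. Among the control arrays, 18 genes were lowest on replicate 3.

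**Figure D2:**
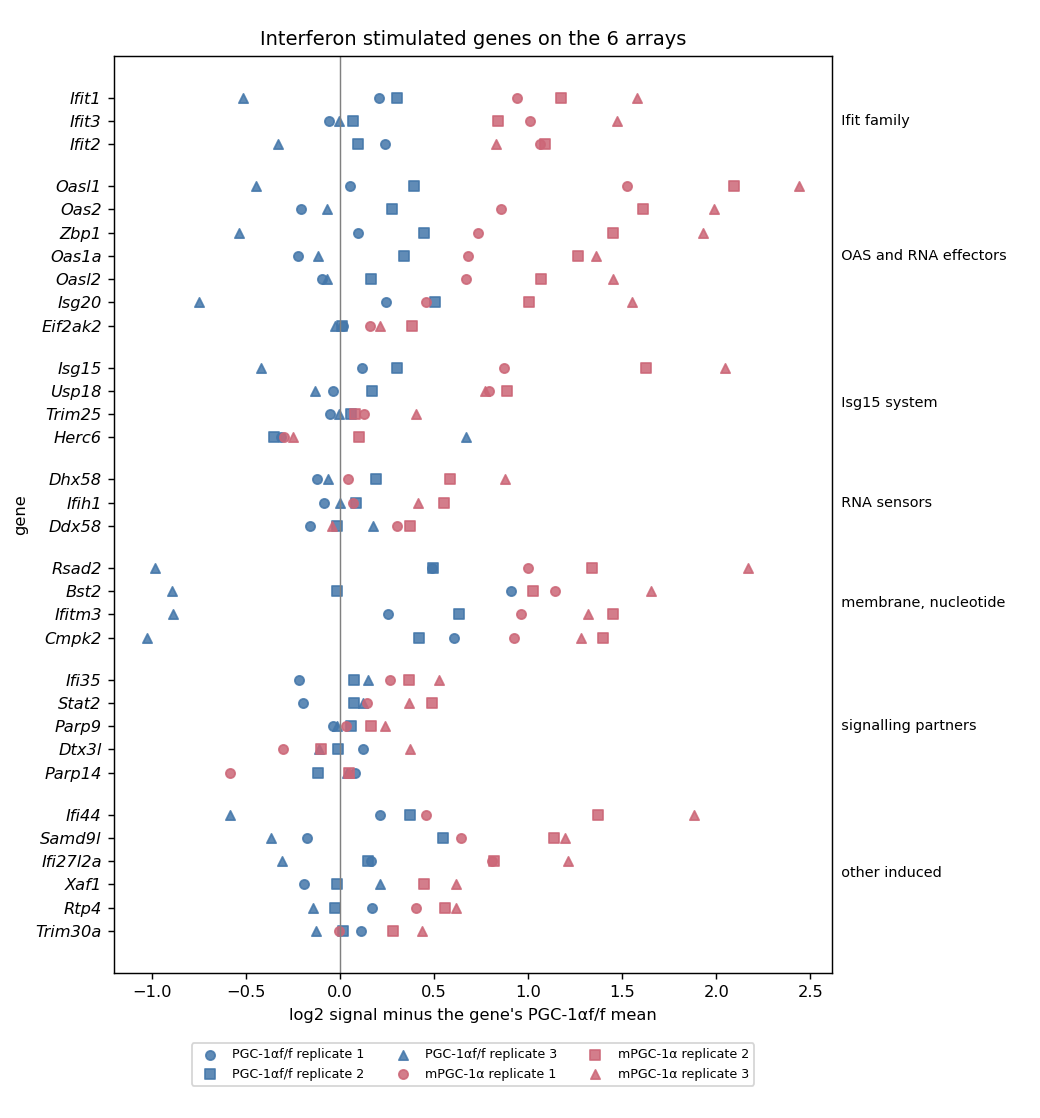
Log2 signal of the 32 tested genes on each array (points), minus the gene's PGC-1αf/f mean, ordered by role; blue points are PGC-1αf/f arrays, red points mPGC-1α arrays, and the marker gives the replicate. Red points lie to the right of all blue points for 22 genes of the 31 with 6 values, and the colours mix for the other 9, which are Isg20, Herc6, Dhx58, Ifih1, Ddx58, Trim30a, Parp9, Parp14 and Dtx3l.

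Marker genes of other cells were compared between the groups as well. Of the blood leukocyte, endothelial and mural, and border macrophage markers, 0 reached an unadjusted p under 0.05 in either direction. Of all genes, 7.83% were higher and 5.75% lower at that level. Blood leukocyte markers, such as S100a8 and Ngp of neutrophils, were higher for 18 of the 19 tested, with a median difference of 1.11. Their mean level was 1.45, 1.96 and -0.90 on PGC-1αf/f replicates 1, 2 and 3 and 1.78 to 2.27 on the mPGC-1α arrays, so the difference came mainly with 1 control array. Without PGC-1αf/f replicate 3 the median was 0.35. Within the list, 4 markers were too dim to be tested, Cd79a, Ms4a1 and Klrb1c of B and natural killer cells among them, while Cd79b, Nkg7 and Gzma of the same cell types were well above background on each array. The marker that was lower was Cd79b, with a difference of -0.30. Endothelial and mural markers were higher for 7 of 7 tested out of 11, since Cdh5, Pecam1, Rgs5 and Tek were too dim, with a median difference of 0.74 (0.06 without that array) and a mean level of -1.86 on it, against -0.68 to 0.04 on the others. Pecam1, well above background on 2 control arrays and no mPGC-1α array, had each mPGC-1α signal below each control. Border macrophage markers were higher for 7 of 7, with a median of 0.31 and the highest level on mPGC-1α replicate 3. Oligodendrocyte markers were lower for 7 of 7 (median -0.61, or -0.51 without PGC-1αf/f replicate 3). At an unadjusted p under 0.05, 4 of them were lower (5.75% of all genes). Mog, with the largest difference of these (-1.39), was well above background on all control arrays and on no mPGC-1α array. Immediate-early and dissociation genes, such as Fosb and Dusp1, were higher for 12 of 12 (median 1.11). Dusp1, Fosb, Hspa1a, Egr1, Ier2 and Nr4a1 were so at an unadjusted p under 0.05 (7.83% of all genes). Dusp1 and Fosb passed the adjusted threshold (adjusted p 0.0122 and 0.0169). Hspa1a was well above background on 2 control arrays only. Fos and Zfp36 had values on 1 mPGC-1α array and Btg2 on 1 control array, so they count for direction and median only. The 8 genes of the list with values on every array were at a mean level of 0.49 to 0.77 in the controls and 1.89 to 2.01 in mPGC-1α microglia. In bulk samples, fewer cells of a type and less RNA per cell cannot be told apart, and the part of these cells in the differences below was not tested.

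**Figure D3:**
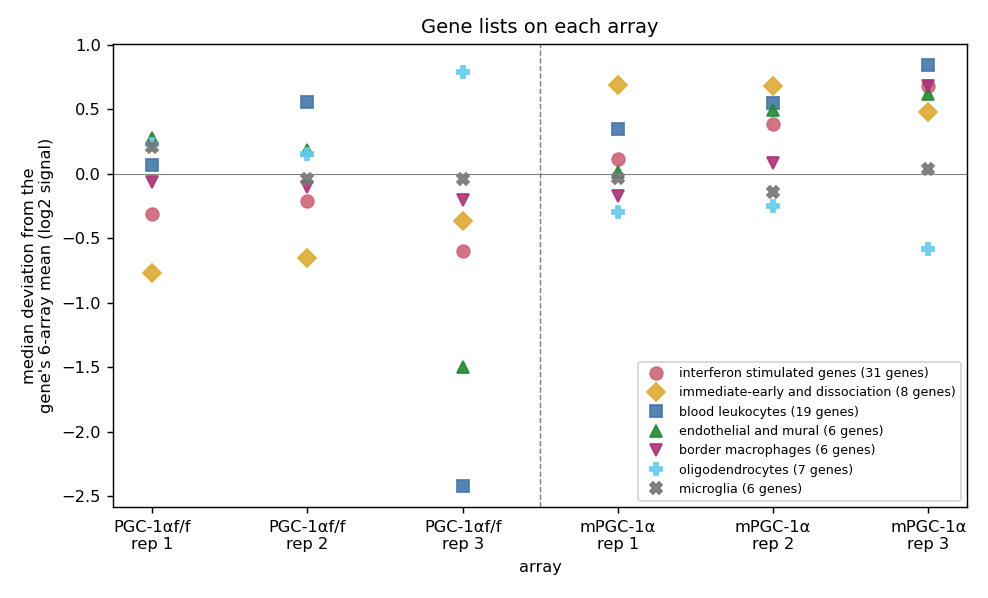
Median deviation of each gene list from its genes' 6-array mean in log2 signal (vertical axis) on each of the 6 arrays (horizontal axis), with control arrays left of the dashed line. Interferon stimulated genes run from -0.60 to -0.21 in the controls and from 0.11 to 0.68 in mPGC-1α microglia, whereas blood leukocyte markers are at -2.42 on PGC-1αf/f replicate 3 and between 0.07 and 0.84 on the others.

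The comparison was therefore repeated without the arrays that stood apart. Without PGC-1αf/f replicate 3 the median difference of the list was 0.72 (0.02 over all genes), 20 of 32 genes were higher at an unadjusted p under 0.05 (6.09% of all genes), and 8 differed by at least 1 (1.17%). Leaving out mPGC-1α replicate 3 as well gave a median of 0.63 and 17 genes higher at an unadjusted p under 0.05 (5.69%). Limma placed 0 past the threshold in both. The arrays lay on 1 slide, with each group in a slide row of its own, so row and group cannot be told apart. Slide columns 1 and 2 held an array of each group. The median difference was 0.46 within column 1 and 0.63 within column 2, and 28 of 31 genes were higher in mPGC-1α microglia in both columns (34.7% of all genes). Column 3 held only mPGC-1α replicate 3, and column 4 only PGC-1αf/f replicate 3. A fixed block on slide column therefore compares columns 1 and 2 alone. Its median of 0.63 is by design the value without both replicates 3, not a separate check. The medians within the columns use the same arrays.

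**Figure D4:**
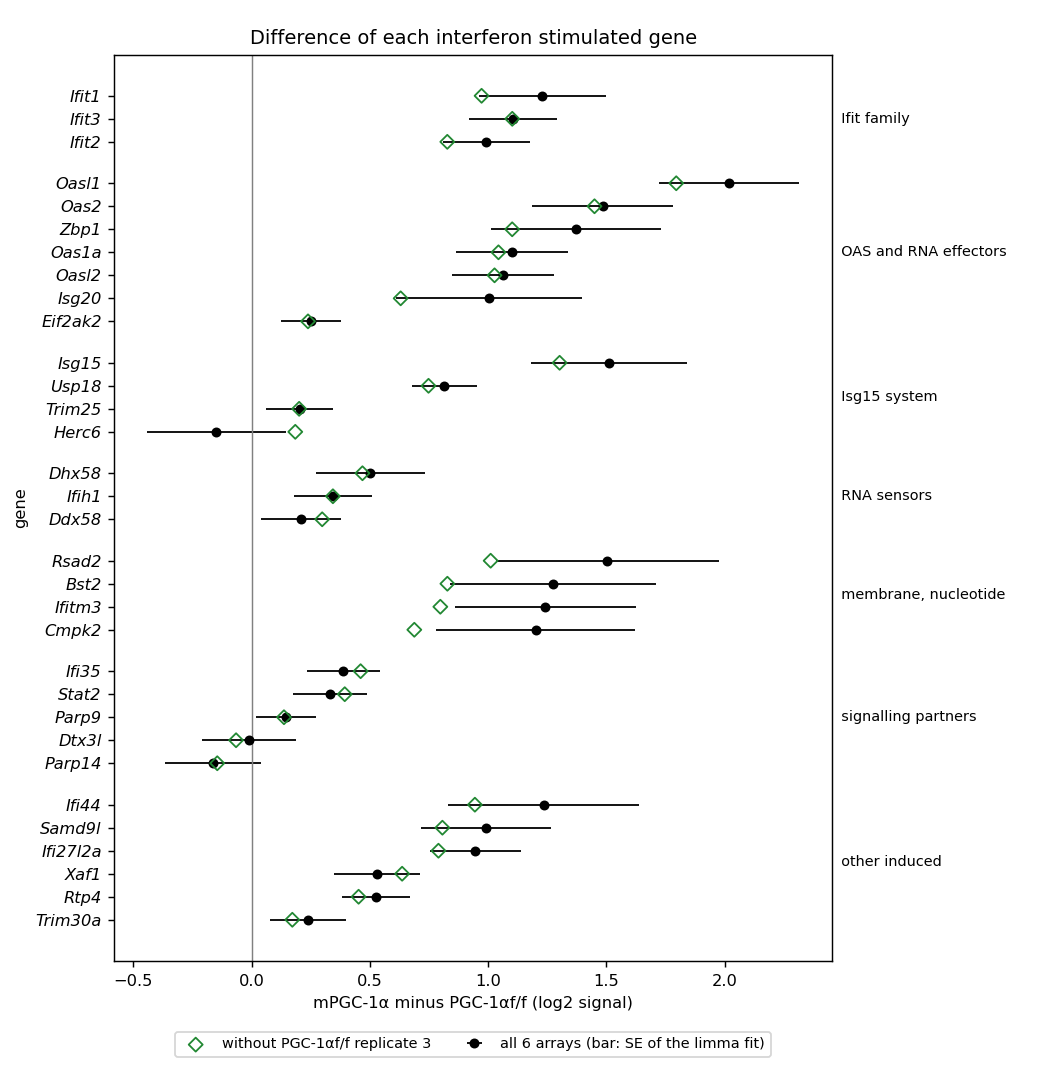
Difference in log2 signal between mPGC-1α and PGC-1αf/f microglia (horizontal axis) for each of 32 genes, with the SE of the limma fit as bars and the value without PGC-1αf/f replicate 3 as open diamonds. The diamonds lie left of the filled points for Rsad2, Bst2, Ifitm3 and Cmpk2, close to them for Ifit3 and Oasl2, and on the other side of 0 for Herc6.

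The Ifit genes encode proteins that bind viral RNA lacking the marks of self and hold it back from translation. All 3 were higher in mPGC-1α microglia. Ifit3 was at 1.04, 1.16 and 1.09 on PGC-1αf/f replicates 1, 2 and 3 and at 2.10, 1.93 and 2.57 in mPGC-1α samples. The controls lay close together, below every mPGC-1α array. The difference was 1.11 (SE 0.19, adjusted p 0.0970), and 1.102 without PGC-1αf/f replicate 3. Ifit1 gave 0.02, 0.11 and -0.70 in the controls against 0.75, 0.98 and 1.39, a difference of 1.23 (SE 0.27, adjusted p 0.135). Here PGC-1αf/f replicate 3 was lower than the other controls, and the groups did not overlap. Ifit2 gave -2.24, -2.38 and -2.81 in the controls against -1.42, -1.39 and -1.65, a difference of 0.99 (SE 0.18, adjusted p 0.115). All mPGC-1α arrays were again above all controls. Ifit2 and Ifit3 are next to each other on chromosome 19, with 3 further Ifit genes before Ifit1. The signal of near-identical copies such as Ifit3b cannot be told apart here.

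Genes that act on RNA were taken next, beginning with the OAS family. OAS enzymes make a messenger that switches on RNA decay. Of the OAS-like proteins OASL1 and OASL2, OASL1 is known to hold back translation of Irf7 mRNA. Oasl1 was at -1.93, -1.59 and -2.43 for PGC-1αf/f microglia and at -0.46, 0.11 and 0.46 in mPGC-1α samples. The groups lay well apart. The difference of 2.02 was 4.05-fold (SE 0.30, adjusted p 0.0784), and a second Oasl1 probe gave 2.03 (SE 0.40). Without PGC-1αf/f replicate 3 the Oasl1 difference was 1.80. Its neighbour on chromosome 5, Oasl2, gave -0.20, 0.06 and -0.18 against 0.56, 0.96 and 1.34 (difference 1.06, SE 0.22, adjusted p 0.127). These groups did not overlap either. Oas2 gave -3.32, -2.84 and -3.19 against -2.26, -1.51 and -1.13 (difference 1.49, SE 0.30, adjusted p 0.124). It was dim, and well above background on 2 of the 3 control arrays and on all mPGC-1α arrays.

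Oas1a, an active synthetase, differed by 1.102 with groups that did not overlap (adjusted p 0.134), and the signal of close copies such as Oas1g cannot be told apart from it. The nucleic acid sensor Zbp1, which triggers cell death, was higher by 1.37 at its brighter probe and by 1.20 at a second. Isg20, an RNA exonuclease, was higher by 1.004, and this value dropped to 0.63 without PGC-1αf/f replicate 3. Its second probe gave 1.51, and 0.99 without PGC-1αf/f replicate 3. Eif2ak2, the kinase PKR that stops translation on double-stranded RNA, differed by 0.25 (SE 0.13, adjusted p 0.358). In this role Eif2ak2 did not reach an unadjusted p of 0.05, whereas Oasl1, Oasl2, Oas1a, Zbp1 and Isg20, measured on every array, and the dimmer Oas2 did (7.83% of all genes).

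ISG15 is a small ubiquitin-like protein that is attached to other proteins; HERC6 and TRIM25 can act as ligases for it, and USP18 removes it. Isg15 itself was at 0.10, 0.28 and -0.44 in PGC-1αf/f samples and at 0.85, 1.61 and 2.02 in mPGC-1α samples. No control reached the lowest mPGC-1α array. The difference of 1.51 was 2.85-fold (SE 0.33, adjusted p 0.135), and 1.30 without PGC-1αf/f replicate 3. Usp18 gave -0.35, -0.14 and -0.44 against 0.48, 0.57 and 0.46. Both groups were tight for this gene, and they lay apart. Its difference was 0.81 (SE 0.14, adjusted p 0.0970), and leaving out any 1 array kept it between 0.75 and 0.90. The ligases showed little of this. Trim25 gave 1.53, 1.65 and 1.58 against 1.72, 1.67 and 1.99 (difference 0.20, SE 0.14, adjusted p 0.479), with groups that just failed to overlap. The Trim25 difference was 0.10 without mPGC-1α replicate 3. Herc6 gave -2.83, -2.87 and -1.85 against -2.81, -2.41 and -2.76 (difference -0.15, SE 0.29, adjusted p 0.818). Its highest value was PGC-1αf/f replicate 3, without which the difference was 0.18, and it was well above background on 2 of the 3 control arrays.

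The RIG-I-like receptors detect viral RNA in the cytosol. Ddx58 encodes RIG-I, Ifih1 encodes MDA5, and Dhx58 encodes LGP2, which tunes the other two. None of these 3 passed an unadjusted p of 0.05 (7.83% of all genes were higher at that level). Dhx58 was at 0.35, 0.66 and 0.41 among controls and at 0.52, 1.06 and 1.35 in mPGC-1α samples (difference 0.50, SE 0.23, adjusted p 0.326). The Dhx58 difference was 0.31 without mPGC-1α replicate 3. Ifih1 gave 0.72, 0.89 and 0.81 against 0.87, 1.36 and 1.22 (difference 0.34, SE 0.16, adjusted p 0.338). In both genes mPGC-1α replicate 1 lay within the range of the controls. Ddx58 gave 0.78, 0.93 and 1.12 against 1.24, 1.32 and 0.90 (difference 0.21, SE 0.17, adjusted p 0.541), with mPGC-1α replicate 3 among the controls. A second Ddx58 probe differed by 0.11.

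Rsad2, Cmpk2, Bst2 and Ifitm3 act at membranes or on nucleotides. IFITM3 blocks fusion of viruses in endosomes, BST2 (tetherin) holds budding virus at the cell surface, and viperin, the product of Rsad2, makes a chain-ending nucleotide from the product of CMPK2. Each was higher at an unadjusted p under 0.05 (7.83% of all genes) with groups that did not overlap, and each was lowest on PGC-1αf/f replicate 3. Ifitm3 was at 1.27, 1.64 and 0.12 in the controls and at 1.97, 2.46 and 2.33 in mPGC-1α microglia (difference 1.24, SE 0.38, adjusted p 0.216). Rsad2 gave 0.36, 0.37 and -1.11 against 0.87, 1.21 and 2.04 (difference 1.503, SE 0.47, adjusted p 0.222). Bst2 gave 2.13, 1.20 and 0.33 against 2.36, 2.24 and 2.87 (difference 1.27, SE 0.44, adjusted p 0.245). The control group was wide in all of them, and the control nearest to the mPGC-1α arrays was PGC-1αf/f replicate 1 for Bst2 and replicate 2 for Ifitm3. Cmpk2, which is next to Rsad2 on chromosome 12, was higher by 1.20 (adjusted p 0.251). With PGC-1αf/f replicate 3 left out, on which blood leukocyte markers were low, the differences were 0.80 for Ifitm3, 1.01 for Rsad2, 0.83 for Bst2 and 0.69 for Cmpk2.

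Signalling partners differed less. STAT2 is the part of the interferon-activated factor that carries its activation domain, IFI35 is a regulator of innate signalling, PARP9 and DTX3L form a complex with ADP-ribosylating and ubiquitin ligase activity, and PARP14 is a further ADP-ribosyltransferase. Ifi35 was at 2.14, 2.43 and 2.50 in control samples and at 2.62, 2.72 and 2.88 in mPGC-1α samples (difference 0.39, SE 0.15, adjusted p 0.282). Its groups did not overlap, and a second probe gave 0.40. Stat2 gave 0.63, 0.90 and 0.95 against 0.97, 1.31 and 1.19 (difference 0.33, SE 0.16, adjusted p 0.338). The lowest mPGC-1α array was only just above the highest control. Parp9 gave 1.69, 1.79 and 1.71 against 1.76, 1.90 and 1.97 (difference 0.15, SE 0.13, adjusted p 0.572).

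Dtx3l and Parp14 lie beside Parp9 on chromosome 16, and their groups mixed at the brighter probe. Dtx3l gave 2.18, 2.04 and 1.95 against 1.75, 1.96 and 2.43, a difference of -0.01 (SE 0.20, adjusted p 0.983). Both the lowest and the highest value came from mPGC-1α arrays. Parp14 gave 2.13, 1.93 and 2.09 against 1.46, 2.09 and 2.096, a difference of -0.16 (SE 0.20, adjusted p 0.696), and mPGC-1α replicate 1 was the low array. A second Parp14 probe differed by -0.42 (SE 0.17, unadjusted p 0.047, limma adjusted p 0.295), with each mPGC-1α array below each control. The signs of these 2 genes turned with some arrays left out, as given in the closing part on processing.

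Of the 6 remaining genes, 5 were higher at an unadjusted p under 0.05 (7.83% of all genes). Ifi27l2a, a small mitochondrial or nuclear membrane protein, was at 2.47, 2.45 and 2.00 for PGC-1αf/f microglia and at 3.12, 3.12 and 3.52 in mPGC-1α samples (difference 0.95, SE 0.19, adjusted p 0.128). Every mPGC-1α array was above every control. Rtp4, a chaperone of receptor transport, gave 2.86, 2.66 and 2.55 against 3.09, 3.25 and 3.30 (difference 0.52, SE 0.14, adjusted p 0.189). The restriction factor Samd9l gave -1.01, -0.29 and -1.20 against -0.19, 0.30 and 0.37 (difference 0.99, SE 0.27, adjusted p 0.192). The groups lay apart for both, with PGC-1αf/f replicate 2 close to mPGC-1α replicate 1 for Samd9l. Ifi44 was higher by 1.24 (adjusted p 0.233). Xaf1, a promoter of apoptosis, was higher by 0.53, from 5 arrays, since the spot on mPGC-1α replicate 1 was an outlier and was left out. Trim30a, a restraint on NF-kB signalling, differed by 0.24 (adjusted p 0.471), and by 0.14 without mPGC-1α replicate 3.

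The genes that feed this response were examined next, to see which steps of the pathway moved with its targets. Of 35 listed genes 24 were tested, with a median difference of -0.01, and limma placed 0 past the threshold. At an unadjusted p under 0.05, 2 were higher (7.83% of all genes) and 0 lower. These were Irf7, the transcription factor that amplifies interferon production, and Socs3, an inhibitor of JAK and STAT signalling. Products of the response include transcription factors of the pathway. The values therefore cannot tell whether Irf7 fed the response or was raised by it.

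Irf7 was at 1.23, 1.41 and 0.88 in PGC-1αf/f samples and at 2.04, 2.33 and 2.39 in mPGC-1α samples. The groups did not overlap, and the difference was 1.08 (SE 0.18, adjusted p 0.0970), or 0.93 without PGC-1αf/f replicate 3. Socs3 gave 1.66, 2.62 and 2.44 against 2.80, 3.39 and 3.35 (difference 0.94, SE 0.29, adjusted p 0.216). All mPGC-1α arrays were above the controls here too.

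The receptor chains gave differences near 0. Ifnar1 was at 3.78, 3.48 and 3.501 against 3.56, 3.51 and 3.34 (difference -0.11, SE 0.15, adjusted p 0.707). Ifnar2 was at 2.39, 2.35 and 2.38 against 2.26, 2.23 and 2.33 (difference -0.10, SE 0.12, adjusted p 0.693). Ifnar1 values overlapped between the groups. All 3 mPGC-1α values of Ifnar2 lay below the controls, by a difference smaller than its SE. Irf9 gave 2.03, 2.09 and 2.001 against 2.21, 2.21 and 2.27 (difference 0.19, SE 0.12, adjusted p 0.439). Irf9 groups did not overlap although the step between them was small. Irf9 and Stat2 encode parts of the factor that binds the response element, and they differed by 0.19 and 0.33.

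Sensing genes held 3 higher and 5 lower of 8 tested, Sting1, Cgas and Mavs among them, with a median of -0.09. The kinase gene Tbk1, picked after its values were seen, was at 0.61, 0.62 and 0.598 against 0.44, 0.29 and 0.1995 (difference -0.30, SE 0.13, adjusted p 0.302). Its mPGC-1α values all lay below the controls. Interferon genes themselves were at the limit of the array. Of 8 with a probe, 6 had no array well above background, Ifnb1 was on mPGC-1α replicate 3 only, and Ifng on PGC-1αf/f replicate 2 only. Ifnb1 signals were -3.74, -4.23 and -4.81 in the controls and -4.08, -4.01 and -3.28 in mPGC-1α microglia, which overlap.

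**Figure D5:**
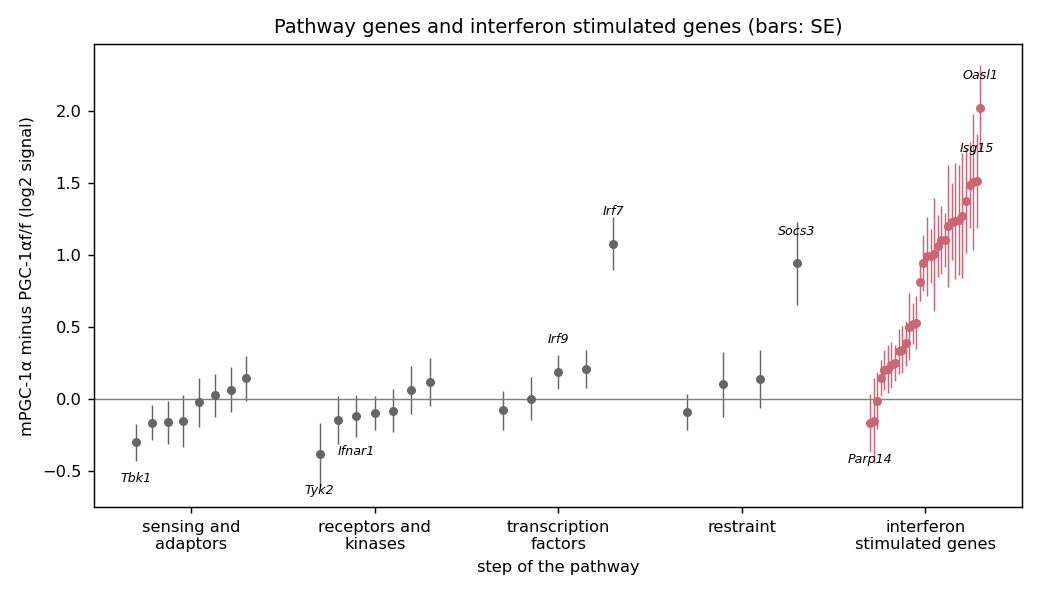
Difference in log2 signal between mPGC-1α and PGC-1αf/f microglia (vertical axis) for each gene (points, with SE bars), by step of the pathway (horizontal axis). Sensing, receptor and kinase genes lie near 0, from -0.38 to 0.15, whereas Irf7 at 1.08, Socs3 at 0.94 and most interferon stimulated genes lie above.

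Some listed genes are neighbours on a chromosome. Rsad2 and Cmpk2 were both higher (1.503 and 1.20), as were Oasl1 and Oasl2 (2.02 and 1.06) and Ifit2 and Ifit3 (0.99 and 1.11), while Parp14, Dtx3l and Parp9 were all between -0.16 and 0.15. These are values set side by side, with no test between the genes.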

How the data were processed

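Labelled Cy5 samples were hybridized to 1-colour Agilent arrays and extracted with Feature Extraction 11.5.1.1. The deposited intensity is background-subtracted and corrected for spatial trends within the array by the authors, without normalization between arrays. The deposited flags are scored 0 or 1 per spot, for spots that are saturated, outliers or well above background. A deposited table with all samples repeats these intensities to within 0.497%. The study's methods name GeneSpring and no test per gene.

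Control spots and outlier spots were left out. From log2 intensity the 75th percentile of the array was subtracted, and spots of a probe were averaged. Testing was limited to probes well above background throughout either group (25333 of 56605, of which 25257 gave a p-value). Transcript accessions were matched to RefSeq symbols (GRCm38.p6) for 33767 probes. Limma 3.58.1 in R 4.3.3 (lmFit, eBayes, two-sided) was fitted on all tested probes with Benjamini-Hochberg adjustment, and was tested on simulated data first. Shares over all genes use the brightest probe of each. Promoters were searched in Python 3.11.15 and figures drawn with matplotlib 3.10.9.

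Precision is limited by 3 arrays per group. Per-array values are given for the 3 genes of each role with the smallest p and for genes lower in mPGC-1α microglia, with other genes by difference. The genes, lists and tests were chosen with earlier results of these data known. Alternatives were 4 other normalizations or sources, 2 filters, blocks on replicate number and slide column, array weights, another variance model, the mean over probes, and leaving out arrays. Leaving out both replicates 3 together was added after seeing the data. Lists covered the interferon pathway, 8 cell types, the dissociation response, Y-linked genes with Xist, and Ppargc1a. Astrocyte, neuron and erythroid markers had median differences of 0.03, 0.27 and 0.12, which were -0.04, -0.01 and -0.81 without PGC-1αf/f replicate 3. Xist was well above background on 3 arrays, PGC-1αf/f replicate 2 and mPGC-1α replicates 2 and 3, with its values given above. Some listed genes are not reported here by name.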

Additional observations from a re-analysis of the deposited data

How the results depend on the processing

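Against 0 of 32 genes past the threshold by limma (21 higher at an unadjusted p under 0.05), there were 9 with array weights (1.79% of all genes; Ifi27l2a, Ifit1, Ifit2, Ifit3, Isg15, Oas2, Oasl1, Oasl2 and Usp18), 4 in the table without normalization (1.54%; Isg15, Oas2, Oasl1 and Rsad2) and 2 with slide column as a random block (0.29%; Oasl1 and Usp18). Irf7, of the pathway genes, also passed with array weights (0.94, adjusted p 0.0284). The weights were 2.69 for PGC-1αf/f replicate 2 and 2.62 for mPGC-1α replicate 2, against 0.39 to 1.06 for the other arrays. The calls with array weights therefore rest largely on those replicates 2. There were 0 under every other alternative, and 0 to 0 without any 1 array. Genes higher at an unadjusted p under 0.05 numbered 14 (without mPGC-1α replicate 3) to 24 when leaving out 1 array (4.6% to 12.4% of all genes) and 17 to 24 otherwise (4.8% to 11.1%). The median difference was 0.72 with array weights, and 0.72 (without PGC-1αf/f replicate 3) to 1.03 when leaving out 1 array. It was 0.63 without both replicates 3 and, from the same arrays, with slide column as a fixed block. A median shift moved the median of all genes from 0.02 to -0.11 and that of the list to 0.84. Pathway genes at an unadjusted p under 0.05 numbered 1 (without mPGC-1α replicate 2 or without mPGC-1α replicate 3) to 3 of 24 when leaving out 1 array (8.14% to 18.7% of all genes in either direction; 13.6% with all arrays). Their median was -0.14 with a median shift and -0.11 with normexp and quantile normalization together, and -0.04 to 0.01 without any 1 array. With a replicate block there were 0 genes past the threshold and 20 higher at an unadjusted p under 0.05 (10.1% of all genes). Deviations from the group means correlated between samples sharing number 1, 2 or 3 at 0.19, 0.08 and -0.03, and the pairing was therefore not adopted.

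Signs turned for 3 genes. Dtx3l was at 0.029 with normexp and quantile normalization together, and ran from -0.26 (without both replicates 3) to 0.14 (without mPGC-1α replicate 1) when arrays were left out, being above 0 also without PGC-1αf/f replicate 1 (0.052) and without mPGC-1α replicate 2 (0.034). Herc6 was at 0.20 with array weights and 0.18 without PGC-1αf/f replicate 3, down to -0.33 without PGC-1αf/f replicate 2. It was at 0.23 without both replicates 3 and, from the same arrays, with slide column as a fixed block. Parp14 was at 0.046 without mPGC-1α replicate 1 and down to -0.27 without mPGC-1α replicate 3. The other 29 genes kept their sign under each alternative run. The cause of each change was not tested. Signal over background limits Oas3, which has no difference given, and Herc6 and Oas2, each dim on 1 control array.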
